A study of Mus musculus with 96 samples.

Results

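The combined enhancer deletion concerns mouse line E123, in which the Igf1 enhancers that lines E1 and E23 carry apart are floxed together, so that the recombinase Cre can cut out all of them. Its effect was read in nuclei of VIP interneurons from the visual cortex. It was studied in 15 of the 96 libraries of the series, chosen by their labels: 4 Cre and 4 dCre libraries made after light, and 3 Cre and 4 dCre libraries made in the dark. All 15 came from mice that were Igf1-E123 fl/fl and also VIP flp/wt. Both sexes were used: 2 female and 2 male libraries in each light group, 3 female and 1 male in dark dCre, and 2 female and 1 male in dark Cre. The mice were injected in the visual cortex at 55 to 60 days of age with either AAV-Syn1-fDIO-mScarlet-KASH-2a-Cre or the same virus carrying dCre, an inactive form of Cre that leaves the enhancers in place. Housing in darkness began 3 days after injection and lasted 10 to 12 days, and the light groups then saw light for 1 h. The fDIO cassette is turned on by the recombinase Flp, which these mice make in VIP cells, so mScarlet and Cre depend on Flp, and neither group is free of virus. Each library was made from 50 to 100 sorted nuclei of frozen tissue. No value here measures the cut itself, because gene counts do not reach the enhancers, and the sources used here give no coordinates for it. The labels number the libraries of a group as biological replicates.

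IGF1 is a secreted growth factor that binds the receptor IGF1R, a tyrosine kinase that signals through IRS adaptors, PI3K, Akt and mTOR, while IGF-binding proteins set how much free ligand is present. VIP interneurons are GABAergic cells that mainly inhibit other interneurons, and in the cortex they are among the cells that make Igf1. Visual experience after darkness is known to raise Igf1 in them. Enhancers are stretches of DNA that raise transcription of a gene from a distance, often only in some cell types or after some stimuli.

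The 15 libraries held 2436839 to 8213684 counts (median 4402107) and 16296 to 21407 detected genes. Levels are given as CPM, counts scaled to a common library total, on library sizes scaled by the TMM method, and fold changes as log2 of Cre over dCre. Markers that define VIP cells were high: the medians over the 15 libraries were 1979 CPM for Vip, 15420 CPM for Adarb2 and 173 CPM for Htr3a, against 25.4, 376 and 4.44 CPM in the total nuclei of the same line. Slc17a7, a marker of excitatory neurons, had a median of 22.8 CPM against 62.9 CPM in total nuclei, and Ndnf and Cldn5, markers of other interneurons and of endothelium, were at 0 in 12 of 15 libraries each. The immediate-early gene Npas4 separated the light conditions as labelled, with 16.9 to 28.9 CPM after light and 2.22 to 4.2 CPM in the dark among dCre libraries.

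Igf1 was lower with Cre. After light, the 4 dCre libraries (replicates 1 to 4) had 680.0, 609.6, 817 and 628 CPM of Igf1, and the 4 Cre libraries had 239, 343, 287 and 292 CPM. Each Cre library was below each dCre library, with means of 683 ± 93.6 CPM (SD, n = 4) and 290.3 ± 42.6 CPM (SD, n = 4). In the dark, the 4 dCre libraries had 453, 369, 552 and 250.4 CPM and the 3 Cre libraries had 288, 336 and 234 CPM. These dark groups overlapped, because dCre replicate 4 lay between Cre replicates 1 and 3. The dark means were 406 ± 128 CPM (SD, n = 4) with dCre and 286 ± 51.0 CPM (SD, n = 3) with Cre. Both Cre groups were thus near 290.3 CPM, and the dCre groups were at different levels after light and in the dark.

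With light condition as a covariate, Igf1 fell by 0.90 ± 0.185 (SE) on the log2 scale, to 53.8% of the dCre level (edgeR quasi-likelihood test, adjusted p = 0.0387 over 17633 genes). The direction held when each of the 15 libraries was left out in turn, with values of -0.997 to -0.82. The adjusted p then ran from 0.0160 to 0.0969, and it rose above 0.05 without replicate 1 or 2 of dark dCre, 2 or 3 of light dCre, 2 or 3 of dark Cre, or 2 or 3 of light Cre. Taken as a single gene, the mean log2(CPM + 1) of Igf1 was 0.85 lower with Cre (-0.85, exact two-sided permutation test of the virus labels within light condition, 2450 arrangements, p = 0.00327). This permutation p was 0.0098 when adjusted over 3 tests of the Igf1 level: both conditions together, light alone and dark alone. In bulk samples of nuclei, fewer cells that express a gene and less RNA per nucleus cannot be told apart.

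Within the light condition the log2 difference in Igf1 was -1.23 ± 0.238 (SE), and within the dark condition it was -0.50 ± 0.256 (SE). The first had an unadjusted p of 2.44e-05 and an adjusted p of 0.215 across all genes in edgeR, and the second had 0.0600 and 0.477. In the exact two-sided permutation test, the light difference had p = 0.0286 (adjusted over the 3 tests, 0.0429), the smallest that 4 against 4 libraries can give, and the dark difference had p = 0.229. The difference between both Cre effects was -0.73 ± 0.344 (SE), with an unadjusted p of 0.0444 and an adjusted p of 1.00 across all genes in edgeR. An unequal effect of the deletion after light and in the dark therefore did not pass the threshold.

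**Figure D1:**
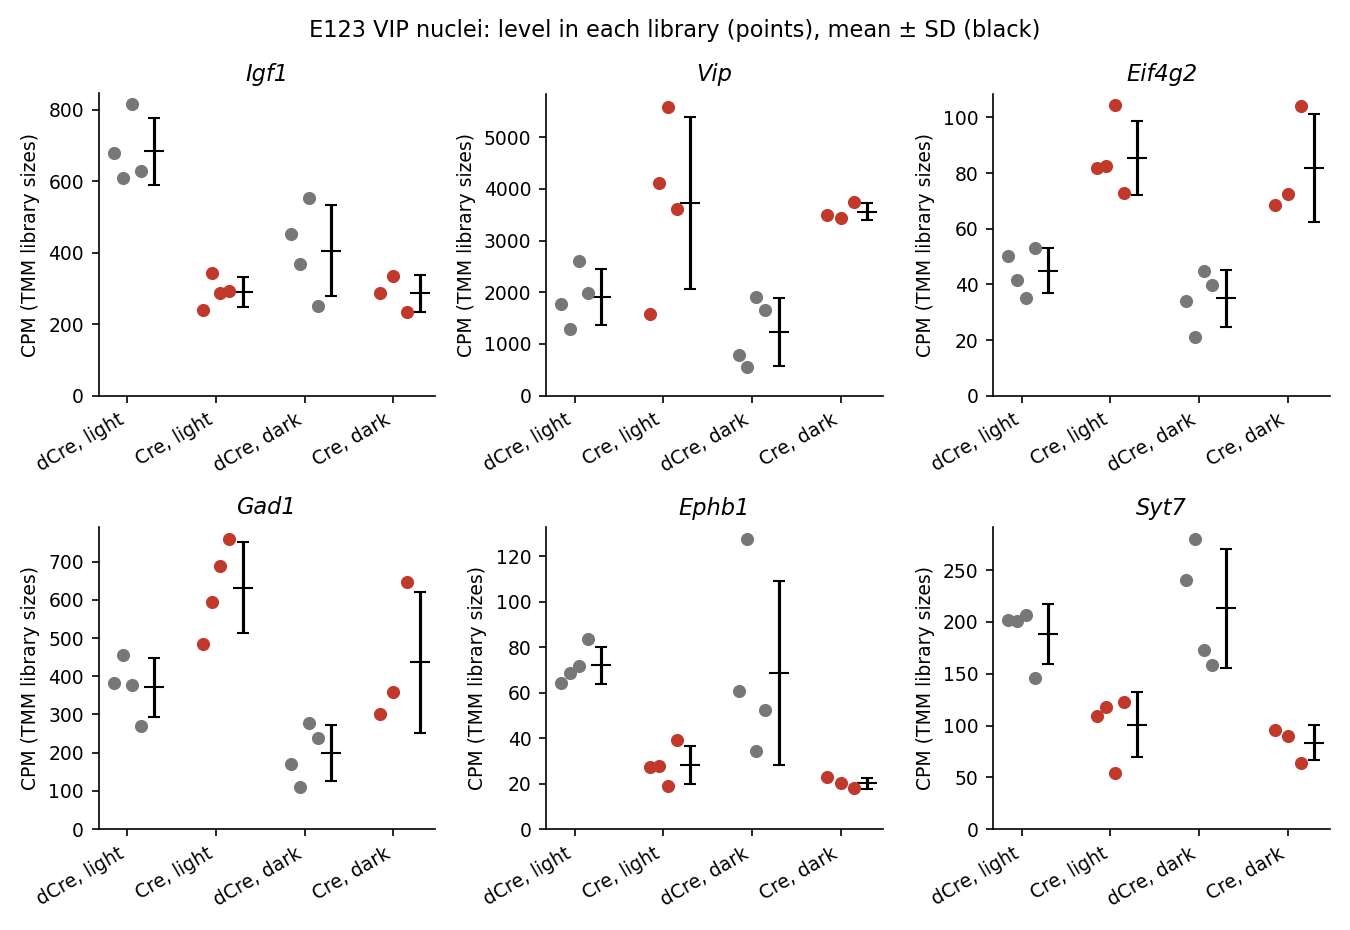
Level (CPM, vertical axes from 0) of 6 genes in each of the 15 E123 VIP libraries, with dCre in grey, Cre in red and mean ± SD in black for each of the 4 groups. Igf1 lies at 234 to 343 CPM in the Cre libraries and at 609.6 to 817 CPM in the light dCre libraries, Vip and Gad1 are higher with Cre, and Ephb1 and Syt7 are lower.

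Igf1 lies on the plus strand of chromosome 10 (mm10, chr10:87858265-87937042, 78.8 kb, ENSMUSG00000020053). Of 66 other tested genes within 5 Mb of it, 0 passed the threshold in edgeR, 16 had an unadjusted p under 0.05, and the smallest adjusted p was 0.0554. Of all 17633 genes tested, 3094 (17.5%) had an unadjusted p under 0.05. The median log2 difference of the 66 genes near Igf1 was 0.05, against 0.01 for all genes tested. The antisense gene Igf1os, which overlaps the start of Igf1, had a log2 difference of -0.43 ± 0.253 (SE, edgeR adjusted p = 0.395). After light it was -1.01 ± 0.306 (SE, edgeR adjusted p = 0.353), and in the dark 0.24 ± 0.327 (SE, edgeR adjusted p = 0.862). Since these libraries carry no strand mark, reads from the stretch shared with Igf1 cannot be told apart. The closest tested neighbours by position were Stab2 on the left (-0.60 ± 0.922 SE) and Nup37 on the right (0.35 ± 0.435 SE), neither of which passed.

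Across the transcriptome, 224 of 17633 tested genes (1.27%) passed an adjusted p of 0.05 with light as a covariate (edgeR quasi-likelihood test). Of these, 91 were higher with Cre (0.516%) and 133 were lower (0.754%). The split depended on scaling: with library totals in place of TMM, 112 were higher and 33 lower, and the median of all genes moved from 0.01 to 0.18. Single libraries moved the count: without replicate 1 or 2 of dark dCre, replicate 2 of light dCre, replicate 2 or 3 of dark Cre, or replicate 3 of light Cre, 0 genes passed. It was 102, 51 and 61 without replicates 1, 3 and 4 of light dCre, 20 and 148 without replicates 2 and 4 of light Cre, and 697 without replicate 4 of dark dCre. No gene passed after light alone (0 in edgeR, 1845 with unadjusted p under 0.05, 75 in DESeq2), in the dark alone (0, 1952 and 103), or for the difference between both (0, 596 and 6). Of the 91 genes that rose, the groups did not overlap for 63 after light (3.54% of all genes were separate in that direction), for 54 in the dark (4.52%) and for 33 in both (0.403%). Of the 133 that fell, they did not overlap for 90 after light (3.36%), 77 in the dark (5.52%) and 43 in both (0.51%), and these values come from the contrast that chose the genes. The separate light and dark effects shared no library, and across the 17633 genes, which are not independent replicates, their Pearson correlation was 0.21.

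Peptide and marker genes of VIP cells were among those higher with Cre. Vip, which encodes vasoactive intestinal peptide, had 1776, 1298, 2609 and 1979 CPM in light dCre and 1579, 4103, 5591 and 3613 CPM in light Cre. In the dark it had 781, 558, 1909 and 1656 CPM with dCre and 3498, 3430 and 3747 CPM with Cre. The dark groups did not overlap, whereas light Cre replicate 1 was below 3 of the 4 light dCre libraries. Vip rose by 1.23 ± 0.258 (SE) on the log2 scale, a 2.34-fold difference (edgeR adjusted p = 0.0402).

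Crh, which encodes corticotropin-releasing hormone, a peptide of a subset of VIP cells, rose by 1.21 ± 0.25 (SE, edgeR adjusted p = 0.0387). Its dark values of 30.4, 24.8, 43.3 and 49.1 CPM with dCre lay below the 71.6, 103 and 115 CPM with Cre, and its light groups overlapped because light Cre replicate 1 again was low, at 71.2 CPM. Gad1, the enzyme that makes GABA, had 382, 455, 377 and 269.5 CPM in light dCre and 484, 594, 688 and 758 CPM in light Cre. It had 171, 111, 277 and 238 CPM in dark dCre and 302, 360.1 and 647 CPM in dark Cre. Neither pair of Gad1 groups overlapped, and the rise was 0.94 ± 0.202 (SE, edgeR adjusted p = 0.0408).

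Of the 16 VIP markers tested, 2 rose (beside 0.516% of all genes), 1 fell (Igf1, beside 0.754% of all genes) and 13 did not pass. Their median log2 difference was 0.60, against 0.01 for all genes. The members with a positive value included Penk (1.51), Chat (1.30), Calb2 (1.17), Htr3a (0.95) and Tac2 (0.89). Those with a negative value, besides Igf1, were Adarb2 (-0.42), Prox1 (-0.30) and Crispld2 (-0.09). Adarb2, an RNA-binding protein of this lineage with the highest CPM in the list, spans 566 kb, and Vip and Crh span 8.40 and 2.00 kb. The sum of the list without Igf1 ranged from 14581 to 36401 CPM in light dCre and from 10952 to 22337 CPM in light Cre, with overlap. Adarb2, with a median of 15420 CPM over the 15 libraries, makes up most of this sum. The sum therefore says little about the other markers. In the dark the sums were 14279 to 30414 CPM with dCre and 19584 to 29930 CPM with Cre.

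Relative to the mean of the GABAergic markers, the log2 difference in Igf1 was -1.23 (exact two-sided permutation within light condition, unadjusted p = 0.000816). This test was not among the 3 adjusted together above. Of these 12 markers, Gad1 rose (beside 0.516% of all genes), 0 fell and 11 did not pass (median 0.36). Their mean log2(CPM + 1) was itself 0.38 higher with Cre (p = 0.0498 in the same exact permutation test).

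Pthlh, which encodes a parathyroid hormone-like peptide, had the largest rise among the 13 named genes that rose, 1.66 ± 0.367 (SE, 3.16-fold, edgeR adjusted p = 0.0408). Its light dCre values of 26.8, 16.9, 5.09 and 21.6 CPM were all below the light Cre values of 35.6, 71.3, 74.9 and 41.3 CPM. Npy, which encodes neuropeptide Y, rose by 0.93 ± 0.206 (SE), and Scg2, a granin of dense-core vesicles, rose by 1.39 ± 0.328 (SE). Scg2 had 137 to 291 CPM in light dCre against 332 to 651 CPM in light Cre, and 41.0 to 207 CPM in dark dCre against 216 to 616 CPM in dark Cre, with no overlap in either condition. Ache, the enzyme that breaks down acetylcholine, rose by 1.49 ± 0.289 (SE, edgeR adjusted p = 0.0345).

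Eif4g2, a translation initiation factor, had 50.1, 41.4, 35.3 and 53.1 CPM in light dCre and 81.9, 82.7, 104 and 72.7 CPM in light Cre. In the dark it had 34.1, 21.2, 44.8 and 39.7 CPM with dCre and 68.7, 72.4 and 104 CPM with Cre. Every Cre library was above every dCre library, and the rise was 1.07 ± 0.204 (SE, edgeR adjusted p = 0.0345). Eif5, another initiation factor, rose by 1.10 ± 0.225 (SE) and also did not overlap in either condition. Cct5 and Cct8, subunits of the chaperonin that folds actin and tubulin, rose by 1.62 ± 0.350 and 1.20 ± 0.256 (SE). Rpl4, a protein of the large ribosomal subunit, rose by 1.47 ± 0.323 (SE), and Wdr77, a partner of the arginine methyltransferase PRMT5, rose by 1.33 ± 0.287 (SE).

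Heat-shock chaperones, a separate list, gave 0 calls among 11 tested members, beside 1.27% of all genes tested. All 11 values were above 0 (median 0.96), with 1.599 ± 0.415 (SE, adjusted p = 0.0644) for Hspa8 and 0.98 ± 0.284 (SE, adjusted p = 0.0736) for Hsp90ab1, both from edgeR. With a measure of each library's balance of long and short genes as a covariate, described below with the length of the genes, the median of this list was -0.15.

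Ephb1, an ephrin receptor, had 64.1, 68.5, 72.0 and 83.6 CPM in light dCre against 27.5, 27.8, 18.8 and 39.4 CPM in light Cre. It had 60.6, 127, 34.5 and 52.3 CPM in dark dCre against 22.8, 20.2 and 17.9 CPM in dark Cre. The groups overlapped in neither condition, and the fall was the largest among the 20 named genes that fell (-1.53 ± 0.260 SE, 34.5% of the dCre level, edgeR adjusted p = 0.0345). Syt7, a calcium sensor of vesicle release, had 201, 201, 207 and 146 CPM in light dCre and 109, 118, 54.3 and 122 CPM in light Cre. In the dark it had 240.4, 280.3, 173 and 158 CPM with dCre and 96.1, 90.2 and 64.3 CPM with Cre, and it fell to 46.4% of the dCre level (-1.11 ± 0.201 SE). Wnk2, a kinase of chloride transport, had 202 to 237 CPM in light dCre against 87.9 to 154 CPM in light Cre and fell by 1.00 ± 0.177 (SE) on the log2 scale.

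The other named genes with the smallest p fell by similar amounts. Brsk2, a kinase of neuronal polarity, changed by -1.35 ± 0.258 and Myo18a, an unconventional myosin, by -1.31 ± 0.244. Cdh18 and Fat3, both cadherins, changed by -1.18 ± 0.229 and -0.84 ± 0.166, and Pkd1, polycystin, by -1.11 ± 0.206. Pgbd5, a transposase-derived protein, changed by -0.95 ± 0.18 (all SE, edgeR adjusted p = 0.0345, and 0.0387 for Fat3). Their light groups did not overlap, apart from Cdh18, for which light dCre replicate 3 was at 87.3 CPM, within the range of light Cre. In the dark the groups of Myo18a and Fat3 overlapped and those of the others did not.

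**Figure D2:**
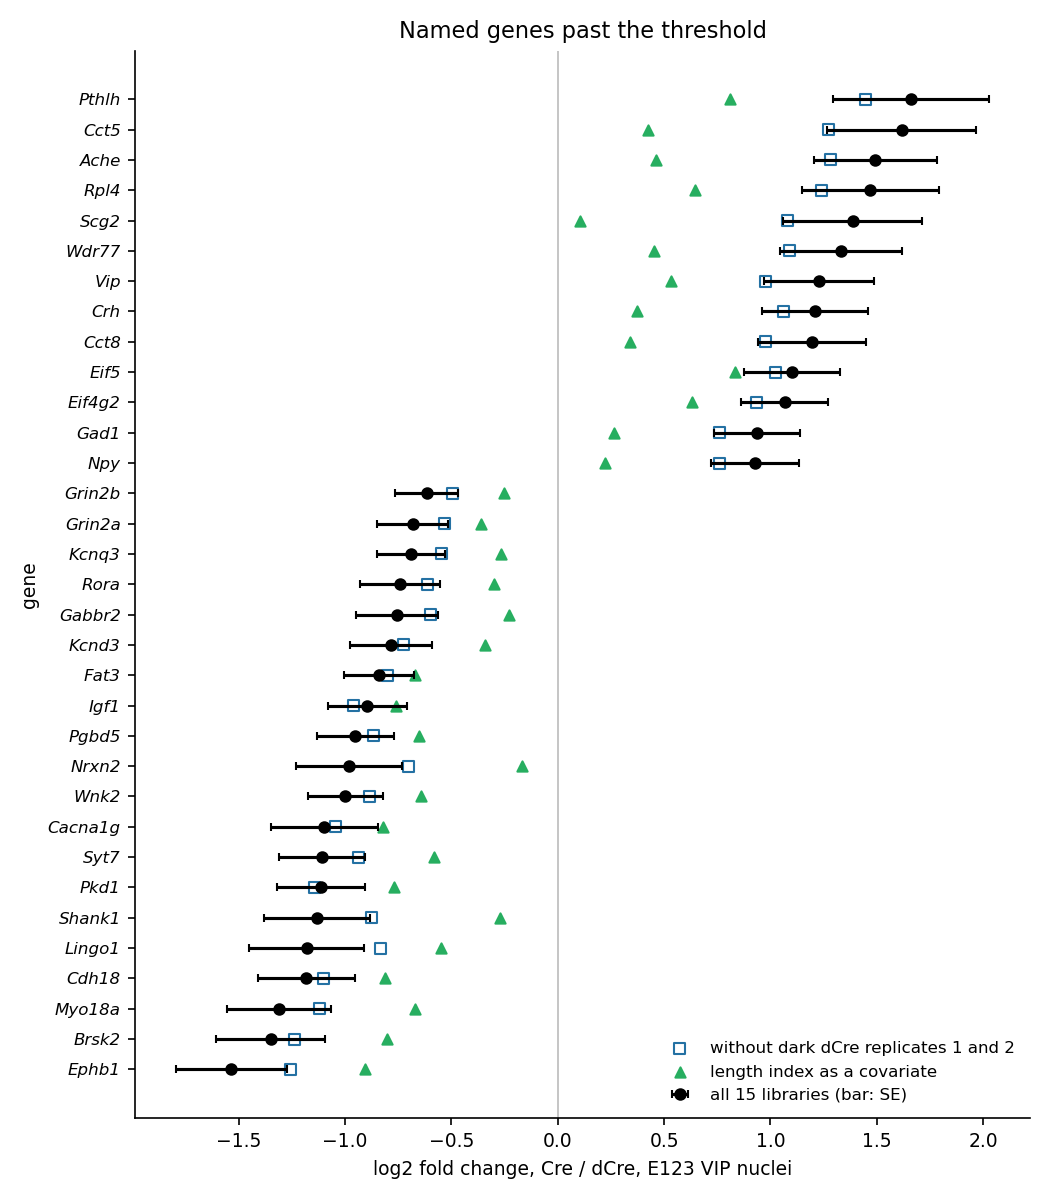
Log2 fold change of the 33 named genes that passed the threshold, in order, for all 15 libraries (black, bars are SE), without dark dCre replicates 1 and 2 (blue squares) and with the length index as a covariate (green triangles). All 33 keep their side of 0 in the 3 fits, and with the covariate all 33 values are closer to 0, Igf1 by less (-0.90 to -0.76) than Shank1 (-1.13 to -0.27) or Scg2 (1.39 to 0.11).

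The list of voltage-gated ion channels held more falls than any other list tested here. Of its 32 tested members 6 fell, beside 0.754% of all genes, 0 rose and 26 did not pass. The list had a median of -0.57, against 0.01 for all genes. Its members had a median span of 209 kb, and with the length measure as a covariate the median was -0.19. Kcnq3, a subunit of the M-current channel, had 1108, 949.6, 918 and 1033 CPM in light dCre and 616, 621, 522 and 612 CPM in light Cre, and it changed by -0.69 ± 0.160 (SE, edgeR adjusted p = 0.0424). Its light groups were far apart, and its dark groups (728 to 1331 against 553 to 811 CPM) overlapped. Cacna1g, a T-type calcium channel, changed by -1.10 ± 0.252, and Kcnd3, an A-type potassium channel, by -0.78 ± 0.192 (SE). With library totals in place of TMM 0 channels passed, and 26 of 32 values were still below 0.

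Among 27 excitatory synapse genes 4 fell, beside 0.754% of all genes, and 0 rose (median -0.44, and -0.18 with the covariate). Grin2b, an NMDA receptor subunit, had 1324 to 1566 CPM in light dCre against 746 to 1063 CPM in light Cre, and 1048 to 1693 against 833 to 1003 CPM in the dark. It overlapped in neither condition, with a log2 difference of -0.62 ± 0.149 (SE). Shank1, a scaffold of the postsynaptic density, changed by -1.13 ± 0.250, Nrxn2, a presynaptic adhesion protein, by -0.98 ± 0.25, and Grin2a by -0.68 ± 0.166 (SE). Under library totals 1 member of this list passed, and 23 of 27 values were below 0. Among 25 inhibitory synapse genes 1 fell, Gabbr2, a GABA-B receptor subunit (-0.76 ± 0.192 SE), and 0 rose (median -0.13), but under library totals 2 rose, 0 fell and the median was 0.01. Among 19 circadian clock genes 1 fell, the nuclear receptor gene Rora (-0.74 ± 0.187 SE), and 0 rose, and under library totals 0 passed. Beside the 0.754% of all genes that fell, 1 call in a list of this size says little.

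None of the listed genes downstream of IGF1 passed. Of all genes tested 1.27% passed, so 0 calls in lists of this size do not show that these genes were unchanged. Of 20 tested receptors and adaptors of IGF and insulin, 0 passed in edgeR and 4 had an unadjusted p under 0.05, against 17.5% of all genes. Their median was -0.40, with 18 of 20 values below 0, and with the length measure as a covariate it was 0.03. Igf1r, the receptor itself, had 254, 228, 277 and 134 CPM in light dCre and 154, 161, 118 and 169.7 CPM in light Cre. In the dark it had 288, 349, 177 and 164 CPM with dCre and 158, 142 and 118 CPM with Cre. Its light groups overlapped and its dark groups did not, and the log2 difference was -0.68 ± 0.195 (SE, edgeR adjusted p = 0.0696). Gab2, a docking protein, was at -0.01 ± 0.196 (SE).

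Of 33 genes of PI3K, Akt, mTOR and FoxO, 0 passed in edgeR and 5 had an unadjusted p under 0.05, against 17.5% of all genes (median -0.37, and -0.02 with the covariate). Gsk3b, a kinase that Akt inhibits, was at -0.13 ± 0.177 (SE, edgeR adjusted p = 0.762). Among 10 tested ligands and binding proteins (median 0.54, and -0.53 with the covariate) Igf1 was the only one to pass, and Igfbp4 (1.21), Igfbp6 (2.06) and Htra1 (0.63, a protease that cuts binding proteins) had positive values that did not.

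Among genes of neuronal activity, stress and DNA damage, only the activity-regulated effectors held genes that passed. Of all genes tested 1.27% passed, and at that share 0 calls say little in lists of this size. Of 24 rapid immediate-early genes 0 passed in edgeR and 3 had an unadjusted p under 0.05, against 17.5% of all genes (median 0.31, and -0.37 with the covariate). Fos had 66.0, 34.3, 34.5 and 12.3 CPM in light dCre and 75.6, 28.7, 83.5 and 77.2 CPM in light Cre, with a log2 difference of 1.33 ± 0.462 (SE, edgeR adjusted p = 0.127). In the dark Fos was at 0.744 to 7.04 CPM with dCre and at 2.41 to 21.9 CPM with Cre, so both pairs of groups overlapped. Npas4 was at -0.04 ± 0.395 (SE). Of 25 activity-regulated effector genes 2 rose, Crh and Scg2, beside 0.516% of all genes, and 0 fell (median 0.71, and -0.18 with the covariate). Of 14 MAPK feedback regulators 0 passed.

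Of 14 tested p53 targets 0 passed in edgeR and 5 had an unadjusted p under 0.05, against 17.5% of all genes. Their median was 0.88, with 13 of 14 values above 0, and with the length measure as a covariate it was 0.86. Plk2, a kinase, was at 1.15 ± 0.329 (SE, adjusted p = 0.0728), and Sesn1 was at -0.27 ± 0.181 (SE). Of 11 interferon response genes 0 passed in edgeR and 2 had an unadjusted p under 0.05, again against 17.5% of all genes (median 1.03, and 0.57 with the covariate), with 1.54 ± 0.468 (SE, adjusted p = 0.0849) for B2m, the light chain of class I MHC.

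Markers of other cells moved with the groups in part. Of 17 excitatory neuron markers 1 fell, Lingo1 (-1.18 ± 0.271 SE), beside 0.754% of all genes, and 0 rose (median -0.50). Their summed level was 684 to 1217 CPM in light dCre and 667 to 870 CPM in light Cre, and 837 to 1585 and 584 to 834 CPM in the dark, where the groups did not overlap. Of 11 parvalbumin and somatostatin markers 2 rose, Pthlh and Npy, beside 0.516% of all genes, and 0 fell. Most of this list went the other way, with 7 values below 0 and 4 above (median -0.16, and 0.18 with the covariate). Its summed levels were 936 to 1277 CPM over all 15 libraries. Of 11 astrocyte markers 0 passed (median 1.94, and -1.65 with the covariate). Light Cre replicate 3 had 534 CPM of Aldoc, an astrocyte enzyme, against 36.6 to 56.5 CPM in the other 3 libraries of its group. Their summed level was 374 to 2861 CPM in light Cre (median 456) and 239 to 1038 CPM in light dCre, and 318 to 686 and 239 to 355 CPM in the dark, so the groups overlapped. Markers of oligodendrocytes (11), microglia (8), endothelium (4) and Lamp5 or Sncg interneurons (6) gave 0 calls. Since 1.27% of all genes passed, 0 calls say little in lists of this size, the astrocyte list included. Values were above 0 for 10 of the 11 oligodendrocyte markers (median 0.84, and 0.33 with the covariate). They were above 0 for all 8 microglia markers (median 0.48, and -0.28 with the covariate). The 12 listed microglia markers summed to 93.4 to 117 CPM in light dCre and 127 to 175 CPM in light Cre, without overlap. In the dark the microglia sums overlapped. No mitochondrially encoded gene passed (9 tested). The part of these markers in the results above was not tested.

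The genes that fell were long and those that rose were short. The 126 protein-coding genes that fell had a median genomic span of 197 kb and the 87 that rose had one of 11.005 kb, against 27.8 kb for all 13307 tested protein-coding genes. Their median levels were also above the 19.1 CPM of all tested protein-coding genes, at 133 CPM for those that fell and 48.5 CPM for those that rose. Of those that fell, 106 were in the longest quartile of genes (68.1 kb or more) and 1 was in the shortest (up to 11.9 kb), and of those that rose, 3 and 47 were. The trend ran through genes that did not pass: the median log2 difference was 0.80 for genes under 5 kb, 0.06 at 20 to 50 kb and -0.46 at 500 kb or more. Igf1, at 78.8 kb, falls among 2070 genes of 50 to 100 kb with a median of -0.17, of which 160 (7.73%) had a lower value than Igf1.

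The same balance was measured in each library as a length index, the mean log2(CPM + 1) of the longest quartile of genes minus that of the shortest quartile. It was 2.64 to 2.99 in light dCre and 1.67 to 2.43 in light Cre, with no overlap. In the dark it was 3.85, 3.84, 2.99 and 2.57 in dCre and 2.89, 2.54 and 1.94 in Cre, so dCre replicates 1 and 2 stood above all other libraries. The difference between Cre and dCre was -0.79 (exact two-sided permutation within light condition, p = 0.00408). In total nuclei of the same line it was -0.52 (p = 0.0433 in the same exact permutation test).

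With the length index as a covariate 0 genes passed in edgeR, and 449 had an unadjusted p under 0.05. The value for Igf1 was then -0.76 (unadjusted p = 0.00642, adjusted p = 1.00), that for Vip 0.53, that for Ephb1 -0.91 and that for Syt7 -0.58. Without dark dCre replicates 1 and 2, 0 genes passed as well and 1971 had an unadjusted p under 0.05, and Igf1 was at -0.96 (unadjusted p = 8.35e-05, adjusted p = 0.167). Length and virus moved together in these libraries, so the covariate takes away part of any virus effect on long or short genes, and which part of the change in single genes goes with length cannot be told apart.

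**Figure D3:**
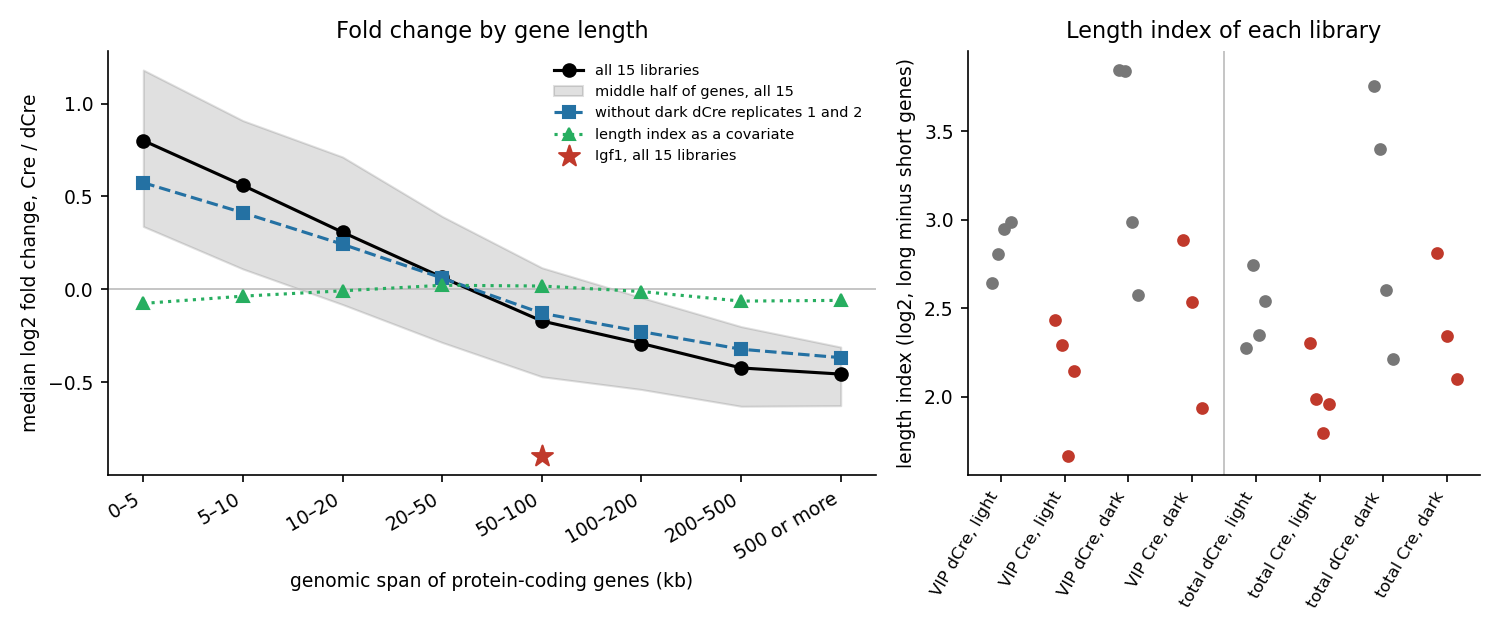
Left: median log2 fold change (Cre over dCre) of tested protein-coding genes by genomic span in kb, for all 15 libraries (black, shading from the lower to the upper quartile), without dark dCre replicates 1 and 2 (blue) and with the length index as a covariate (green), with Igf1 as a star. Right: length index of each E123 library, VIP and total nuclei, with dCre in grey and Cre in red; medians fall from 0.80 to -0.46 with span, and the light Cre VIP libraries (1.67 to 2.43) sit below the light dCre libraries (2.64 to 2.99).

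Total nuclei of line E123 from the visual cortex (15 libraries) were compared gene by gene with the VIP nuclei. Of the 91 genes that rose in VIP nuclei 90 were tested in total nuclei, 85 had a positive value there and 40 of these an unadjusted p under 0.05. Of the 133 that fell 132 were tested, 127 had a negative value and 95 of these an unadjusted p under 0.05. Of all genes tested in total nuclei, 49.9% had a positive value and 12.2% an unadjusted p under 0.05 in either direction. The medians were 0.59 and -0.56, against -0.00101 for all 17950 genes tested there (0.00557% of which passed, 1 gene, Shank1 at -1.30 ± 0.206 SE). Wnk2 was at -0.93 ± 0.178 and Syt7 at -1.12 ± 0.230 (SE) in total nuclei. Other named genes were near 0 or of opposite sign there: Cdh18 was at 0.08 ± 0.216, Ache at 0.01 ± 0.330 and Crh at -0.18 ± 0.843 (SE). Igf1 was at 0.42 ± 0.816 (SE, edgeR adjusted p = 0.888), with 0 to 40.6 CPM per library and no count in 2 light dCre libraries. Whether VIP and total nuclei with equal replicate numbers share a mouse is not given in the labels.

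The VIP nuclei of the other lines gave a second comparison, in a fit of all 48 VIP libraries with a control of its own for each line. Line E1 (Igf1-E1 fl/fl, 17 libraries) and line E23 (Igf1-E23 fl/fl, 16 libraries), both also VIP flp/wt, each carry a part of the enhancers floxed in E123, with the same viruses and treatments. In this fit Igf1 changed by -0.86 ± 0.172 (SE) in E123, by -0.68 ± 0.161 in E1 and by -0.28 ± 0.163 in E23, which are 55.02%, 62.3% and 82.2% of the dCre level. The effect in E123 differed from that in E23 by -0.58 ± 0.236 (SE, edgeR adjusted p = 0.0347 over the 2 line comparisons made for Igf1). Adjusted across all genes, as for the other genes, this difference did not pass (adjusted p = 0.297 in edgeR), and 0 of 20585 genes passed it. It differed from that in E1 by -0.18 ± 0.234 (SE, edgeR adjusted p = 0.448), which does not show that both act alike. The difference from E23 lost its call with library totals (-0.32, adjusted p = 0.280) and with the length index (-0.38, adjusted p = 0.229). It also lost it without any 1 of 10 libraries: replicates 1 or 3 of dark dCre, 3 of light dCre, 1 or 3 of dark Cre and 1 of light Cre of E123, and replicates 3 of dark dCre, 1 of light dCre, 4 of dark Cre and 1 of light Cre of E23 (lowest effect -0.41, adjusted p = 0.140, without E23 dark Cre replicate 4).

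**Figure D4:**
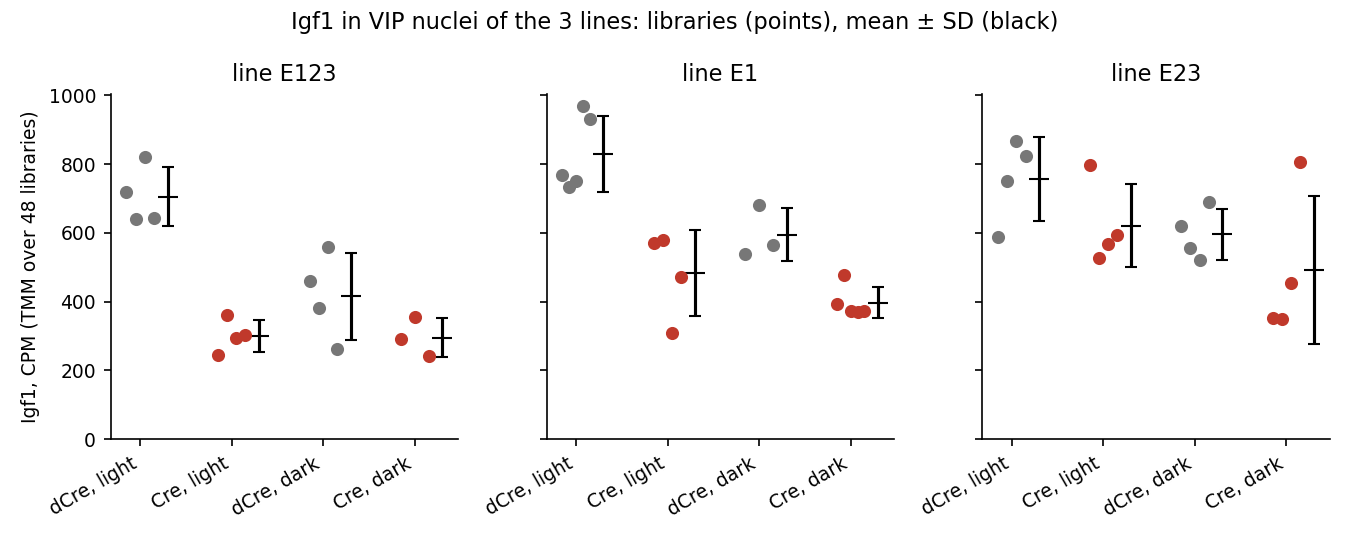
Igf1 (CPM on library sizes scaled over all 48 VIP libraries) in each VIP library of the 3 lines, with dCre in grey, Cre in red and mean ± SD in black. Light Cre libraries of E123 lie at 244 to 360 CPM, those of E1 at 310.2 to 579 CPM and those of E23 at 526 to 799 CPM.

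In the group means of this scaling, light Cre of E123 had 301 ± 47.3 CPM of Igf1 (SD, n = 4), E1 482 ± 125 CPM (SD, n = 4) and E23 621 ± 121 CPM (SD, n = 4). The ranges of E123 (244 to 360 CPM) and E1 (310.2 to 579 CPM) overlapped and those of E123 and E23 (526 to 799 CPM) did not. Dark Cre of E123 had 295 ± 56.7 CPM (SD, n = 3), E1 397 ± 45.2 CPM (SD, n = 5) and E23 491 ± 216 CPM (SD, n = 4). Light dCre, in which no enhancer was cut, had 705 ± 84.8, 830.1 ± 111 and 757 ± 122 CPM in E123, E1 and E23, and these 3 groups overlapped. Dark dCre, also uncut, had 416 ± 126 CPM in E123 (SD, n = 4), 594 ± 77.0 CPM in E1 (SD, n = 3) and 596 ± 73.8 CPM in E23 (SD, n = 4). The dark dCre range of E123 (262 to 560 CPM) overlapped those of E1 (538 to 682 CPM) and E23 (520 to 688 CPM). In the dark, the mean of E123 was thus the lowest with dCre as well as with Cre.

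In the fit of 48 libraries 8 genes of 20585 (0.0389%) passed for E123, 6 higher (0.0291%) and 2 lower (0.00972%). All 8 were among the 224 above, but both effects rest on the same 15 libraries of E123, so this overlap is no independent support. The 8 genes were Eif4g2, Igf1, Cct5, Pthlh and Gad1 and, outside the rule for naming, Srsf5, Nup188 and Gm32061. Srsf5, a splicing factor, changed by 1.44 ± 0.283 (SE) in E123, 1.12 ± 0.274 in E1 and -0.16 ± 0.269 in E23. Nup188, a nuclear pore protein, changed by -1.85 ± 0.391 in E123, -0.07 ± 0.345 in E1 and 0.11 ± 0.351 in E23. The line differences for Nup188 did not pass across all genes in edgeR (adjusted p = 0.672 for E123 minus E1 and 0.216 for E123 minus E23). Of the 91 genes that rose in E123, 90 were positive in E1 and 38 in E23, beside 52.9% and 52.1% of all genes. Of the 133 that fell, 130 were negative in E1 and 55 in E23, beside 46.9% and 47.6% of all genes. The E23 counts (41.8% and 41.4%) thus lay below the shares of all genes. In E1, where 1.57% of all genes passed (0.928% higher and 0.646% lower), 15 of the first and 21 of the second set passed, and in E23 0 of either did. The medians were 0.97 and -0.03 for the first set and -0.67 and 0.04 for the second, beside 0.06 and 0.02 for all genes.

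The 5 genes whose levels were most like those of Igf1 over the 15 libraries, by Pearson's r of log2(CPM + 1), were Ppm1e (0.91), Kcnd3 (0.84), Mark4 (0.83), Gnao1 (0.82) and Rai1 (0.82). The libraries share virus group, light condition and length index, and these values are a description. Kcnd3 was the only one of the 5 to pass the threshold. Ppm1e, a protein phosphatase, was at -0.50 ± 0.157 (SE) and Rai1, a chromatin factor, at -0.90 ± 0.235 (SE).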

How the data were processed

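Meso-Seq libraries were made from 50 to 100 sorted nuclei with oligo-dT priming, 17 PCR cycles and Nextera XT, per the labels' protocols. The authors deposited raw gene counts. The submitters' processing notes name cutadapt 1.18, STAR 2.5.3a, HOMER 4.9.1 and mm10, and their settings are not given in the sources used here. Reads without molecular identifiers are not independent molecules. Symbols and spans came from GENCODE, which matched 55154 of 55335 identifiers (the other 181 held 0.0225% of counts). Counts were tested in R 4.3.3 with edgeR 4.0.16 (TMM, quasi-likelihood, Benjamini-Hochberg adjustment), with DESeq2 1.42.0 as an alternative. On simulated counts for the light-covariate comparison (16554 genes), 19 of 100 genes changed 2-fold and 63 of 100 changed 4-fold were recovered, with 6 false calls. Each simulated gene was drawn on its own, without the shift between long and short genes that the real libraries share. The false calls in the simulation therefore do not give the number among the genes that passed here. Nothing says that replicates came from separate mice beyond their numbering, so p-values measure the spread between libraries. Named genes were Igf1, Vip, Fos, Npas4, up to 10 passing genes in each direction by p, and up to 4 passing members of each list by p, or else its 2 members of highest CPM, and some of these genes are not reported here. Members and lists were chosen with earlier results of these data known.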

Additional observations from a re-analysis of the deposited data

Results flagged for a closer look

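In 14 of 189 groups of 4 libraries checked, 1 library stood far from the other 3, and chance marks about 1 in 20 such groups. In light Cre, replicate 3 was low for Syt7 (54.3 CPM, others 109 to 122), Gab2 (136, others 224 to 238) and Kcnq3 (522, others 612 to 621), and high for Aldoc (534, others 36.6 to 56.5). Replicate 2 of that group was low for Fos (28.7 CPM, others 75.6 to 83.5), replicate 1 for Ache (62.8, others 137 to 153) and replicate 4 for Sesn1 (63.6, others 112 to 116). In light dCre, replicate 3 was high for Nrxn2 (289.8 CPM, others 138 to 148) and Kcnd3 (910.0, others 495 to 531) and low for Spred1 (74.5, others 136 to 141). Replicate 4 of that group was low for Syt7 (146 CPM, others 201 to 207) and Grin2a (1164, others 1412 to 1437). In dark dCre, replicate 3 was low for Brsk2 (48.2 CPM, others 85.3 to 94.8) and replicate 2 for mt-Rnr2 (1480, others 2024 to 2153).

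For Igf1, the effect of Cre in E123 minus that in E23 was -0.58 on the log2 scale (edgeR, fit of 48 VIP libraries, adjusted p = 0.0347 over 2 line comparisons and 0.297 across all genes).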

How the results depend on the processing

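Igf1 stayed lower with Cre in every alternative run. Its call with light as a covariate did not hold once the length index was a covariate (-0.76, edgeR adjusted p = 1.00) and without dark dCre replicates 1 and 2 together (-0.96, adjusted p = 0.167), and leaving out 1 library gave -0.997 to -0.82. After light alone it passed in DESeq2 (-1.22, adjusted p = 0.000308) and with no filter on low counts (-1.24, adjusted p = 0.00324).

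The 224 genes became 1126 in DESeq2, 984 with no filter, 145 with library totals, 118 with 1 coefficient per group, 33 with sex as a covariate, 8 in the fit of 48 libraries and 0 with the length index or without dark dCre replicates 1 and 2, and 0 to 697 leaving out 1 library. The count after light was 75 in DESeq2, 151 with no filter and 0 to 1 leaving out 1 library (1 without light dCre replicate 3). In the dark it was 103, 202 and 0 to 1 (1 without dark Cre replicate 1), and for the light response 6 and 4. The labels do not say whether equal replicate numbers pair the samples. Same-numbered deviations correlated at -0.0754 to 0.172 over 7 pairs and the others at -0.183 to 0.211, which cannot settle it. With a replicate block 747 genes passed, 212 in the dark, and Igf1 was at -0.998 (adjusted p = 0.00708).

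The difference between E123 and E23 in Igf1 lost its call with library totals (-0.32), the length index (-0.38), no filter (-0.59) and without dark dCre replicates 1 and 2 of E123 and E1 (-0.58), and leaving out 1 library gave -0.66 to -0.41.

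Named genes that changed sign were all outside the threshold, and the cause was not tested. With the length index these were Gab2 (0.495), Gsk3b (0.0577), Spred1 (0.0923), Lamp5 (-0.214), Slc1a2 (-0.225), Aldoc (-0.727), Mbp (-0.453), Mobp (-1.25), P2ry12 (-0.0953), Nr4a1 (-0.0243), Per1 (-0.382), Hsp90ab1 (-0.147) and mt-Co1 (-0.437). With library totals they were Npas4 (0.150), Gab2 (0.187), Gsk3b (0.0323) and Gm42418 (0.0429). The fit of 48 gave Npas4 0.00316, Gab2 0.0114, P2ry12 -0.00682 and mt-Co1 -0.0368, and 1 coefficient per group gave Npas4 0.00434, Gab2 0.00223, P2ry12 -0.00335 and mt-Co1 -0.0369. Gab2 was at 0.00500 in DESeq2, 0.00458 with RLE size factors and 0.00139 with sex. The block gave Slc1a2 -0.109 and Mobp -0.00417, and no filter gave mt-Co1 -0.00259. Without dark dCre replicates 1 and 2, Gab2 was at 0.0849, P2ry12 at -0.0227 and Per1 at -0.136. Leaving out 1 library gave -0.0984 to 0.110 for Gab2, -0.144 to 0.489 for Mbp, -0.572 to 0.776 for Mobp, -0.366 to 0.0802 for Npas4, -0.102 to 0.161 for P2ry12, -0.0308 to 0.280 for Per1, -0.269 to 0.169 for Slc1a2, -0.180 to 0.188 for mt-Co1 and -0.398 to 0.204 for mt-Rnr2.

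With 3 to 4 libraries a group most 2-fold changes were missed in simulated data.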
